A study of Homo sapiens with 10 samples.

Results

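The knockdown of DNMT1 was described across all measured genes in MM.1S, an established cell line from human multiple myeloma. The comparison used the 6 of 10 arrays that carried a hairpin against DNMT1 or against luciferase. They were 4 DNMT1 arrays, made of 2 for the hairpin shDNMT1#1 and 2 for shDNMT1#2, and 2 arrays of the luciferase control shLuc. Cells of all groups were infected with a lentivirus that delivered the hairpin, and total RNA was taken 48 h later. The other 4 arrays, with hairpins against HDAC3, served to estimate the spread between replicates and to test whether a change differed between the knockdowns. Sample labels describe the shLuc arrays as a control for knockdown of HDAC3. The sources used here do not state whether infection, hybridization and normalization were shared by the shLuc and the DNMT1 arrays, so a batch effect and the knockdown cannot be told apart. All cells came from 1 cell line, the control was 1 hairpin, and the labels do not tie replicate arrays to different cultures. The spread behind each p-value is therefore one between arrays and may be technical.

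DNMT1 is the maintenance DNA methyltransferase. It is brought by UHRF1 to newly replicated DNA, where it copies the methyl marks of the parental strand to the daughter strand, and its loss lets methylation dilute as cells divide. Promoter methylation holds many germline and imprinted genes, and in tumours other genes too, in a silent state, and inhibitors of DNMT1 are known to raise such genes and to raise interferon-stimulated genes. Myeloma cells are malignant plasma cells, whose identity rests on the transcription factors IRF4, PRDM1 and XBP1.

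Levels are log2 RMA signals of 1 probe set per gene, over 19775 genes, and a change is a difference of such signals, so that 1 unit is a factor of 2. RMA corrects the background of an array, equalizes the distributions of the arrays and summarises the probes of a probe set. Changes given for the knockdown are the mean of both hairpins minus shLuc, with limma's standard error (SE, n = 4 knockdown and 2 control arrays). A gene was called at a Benjamini-Hochberg adjusted p under 0.05 over all genes. The 8 plasma cell markers had shLuc means between 5.90 and 10.64, and MAF, CCND2 and ITGB7, which mark MM.1S, had means from 10.35 to 12.43. Replicate arrays correlated with r from 0.994 to 0.996.

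The groups differed in the spread of their signals. The SD over all probe sets was 1.94 and 1.93 in the shLuc arrays and 1.84 to 1.91 in the DNMT1 arrays, without overlap. The median change of all genes was 0.07, and it depended on level: when genes were split into 10 equal bins by mean level, it lay between 0.08 and 0.10 in the 5 dimmest bins and was -0.14 in the brightest. In the brightest bin 39.2% of genes were called lower and 4.95% higher. Among the dimmest genes the shares were 0.708% lower and 3.64% higher. The part of this dependence in the gene results below was not tested beyond the other normalizations named there.

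**Figure D1:**
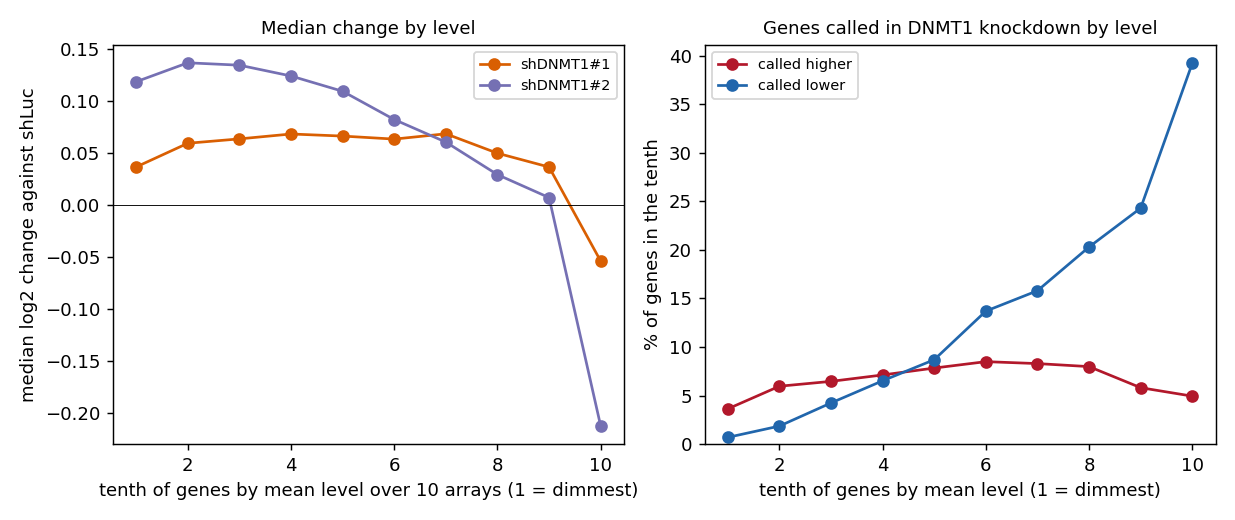
The left plot gives the median log2 change against shLuc in 10 bins of genes by mean level (1 is the dimmest) for each DNMT1 hairpin, and the right plot the percentage of genes in each bin called higher or lower in DNMT1 knockdown. Medians lie above 0 in the dim bins and fall to -0.21 for shDNMT1#2 and -0.05 for shDNMT1#1 in the brightest, where 39.2% of genes were called lower.

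The DNMT1 transcript itself was measured first. It read 8.49 and 8.33 in the shLuc arrays, 5.76 and 6.0 with shDNMT1#1, and 6.27 and 6.07 with shDNMT1#2. Every knockdown array was below both control arrays by more than 2 units. DNMT1 fell by 2.39 ± 0.10 on the log2 scale (limma, adjusted p = 9.5e-12), to 19.1% of control. The hairpins did not differ in a called way (-2.53 and -2.24). In the HDAC3 arrays the mean was 7.49, between shLuc and the DNMT1 arrays, and the DNMT1 minus HDAC3 difference was -1.46 (adjusted p = 3.2e-10).

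Across the genome, 3992 of 19775 genes were called (20.2%), 1317 higher (6.66%) and 2675 lower (13.5%). Most changes were small: only 6 genes rose and 154 fell by at least 1 unit. The 6 were TRIM22, OSTM1, CXCL10, C11orf54, CDKN1A and RRP1B. Genes that moved alike were defined as called genes with the same sign and an unadjusted p under 0.05 for each hairpin. There were 2615 of them, 771 higher (3.9%) and 1844 lower (9.32%). In 4 of the genes that rose and 36 that fell, each hairpin alone moved the level by at least 1 unit. The hairpins differed in breadth: shDNMT1#1 alone called 1611 genes, 265 higher (1.34%) and 1346 lower, whereas shDNMT1#2 alone called 5303, of which 2297 were higher (11.6%) and 3006 lower.

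These calls rest on the spread between replicate arrays, not between hairpins. When the hairpin was entered as a random block, so that variation between hairpins joined the error, 31 genes were called and 2589 had an unadjusted p under 0.05. TRIM22 was the only one of the 31 that was higher. The 30 lower genes included DNMT1, PKP2, EVI2B, UHRF1, PLEKHA3, QSER1, KIFAP3, SLC25A43, POLA1, CDCA7 and MSMO1. Leaving out shLuc replicate 1 lowered the number of calls from 3992 to 1365, 93 higher and 1272 lower. The number moving alike was then 917, of which 67 were higher.

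**Figure D2:**
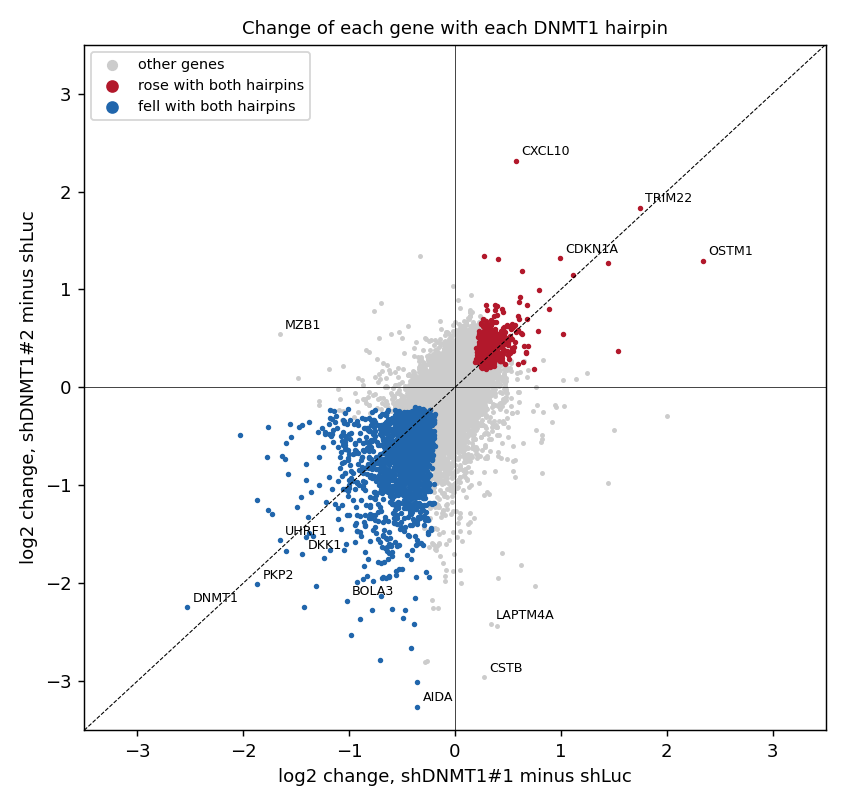
Each point is a gene, with its log2 change against shLuc for shDNMT1#1 on the horizontal axis and for shDNMT1#2 on the vertical axis; the dashed line marks equal change, and red and blue mark the 771 genes that rose and the 1844 that fell with both hairpins. DNMT1, PKP2, UHRF1 and TRIM22 lie near the dashed line, whereas CSTB, AIDA and LAPTM4A lie at -2.42 to -3.26 for shDNMT1#2 and at -0.35 to 0.34 for shDNMT1#1.

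The genes that rose most with both hairpins were ranked by the smaller of the 2 hairpin changes. TRIM22, an interferon-inducible ubiquitin ligase that restricts viruses, headed the ranking. It read 4.83 and 4.58 in shLuc, 6.42 and 6.49 with shDNMT1#1, and 6.41 and 6.68 with shDNMT1#2. The knockdown arrays formed a narrow group more than 1.5 units above the control arrays. TRIM22 rose by 1.79 ± 0.12 (limma, adjusted p = 3.4e-09), 3.46-fold, and remained called with the hairpin as a random block (adjusted p = 0.046). It read 4.10 on average in the HDAC3 arrays, and the difference between the knockdowns was 2.40 (adjusted p = 1.8e-12).

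OSTM1, a lysosomal protein that pairs with the chloride transporter CLCN7, read 3.86 and 3.97 in shLuc, 6.35 and 6.15 with shDNMT1#1, and 5.05 and 5.36 with shDNMT1#2. All knockdown arrays were clear of the control arrays, and those of shDNMT1#1 were the higher. The rise was 1.82 ± 0.13 (adjusted p = 3.6e-09). Its 3 other probe sets changed by 1.07, 0.83 and 0.40. OSTM1 averaged 5.75 in the HDAC3 arrays, and no difference between the knockdowns was called (-0.02, adjusted p = 0.94). C11orf54 and RRP1B, a nucleolar protein of ribosomal RNA processing, had the same standing: they rose by 1.36 ± 0.10 and 1.13 ± 0.11, and their differences from HDAC3 knockdown were 0.12 and -0.21 (adjusted p = 0.47 and 0.16). The other probe set of RRP1B changed by 0.25.

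CDKN1A encodes p21, the cyclin-dependent kinase inhibitor that arrests the cell cycle. Its signals were 9.64 and 9.51 in shLuc, 10.61 and 10.52 with shDNMT1#1, and 10.94 and 10.85 with shDNMT1#2. Both hairpin groups were separate from the controls and from each other. CDKN1A rose by 1.15 ± 0.08 (limma, adjusted p = 2.5e-09), 2.22-fold. This was 0.86 more than in the mean of the HDAC3 hairpins (adjusted p = 7e-09). Those hairpins parted, with 10.17 and 10.16 for shHDAC3#1 but 9.48 and 9.65 for shHDAC3#2. With the hairpin as a random block the adjusted p was 0.054.

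TDO2, the tryptophan dioxygenase that opens the kynurenine pathway, read 4.95 and 4.91 in shLuc, 5.94 and 5.51 with shDNMT1#1, and 5.97 and 5.86 with shDNMT1#2. TIAM1, an exchange factor for the GTPase RAC1, went from 6.37 and 6.44 to between 7.18 and 7.41. FTL, the ferritin light chain, moved from 11.66 and 11.74 to between 12.34 and 12.42. None of these 3 overlapped between the groups. Their rises were 0.90 ± 0.13, 0.84 ± 0.09 and 0.69 ± 0.07, and each was higher than in the mean of the HDAC3 hairpins, by 0.58, 0.57 and 0.63. The HDAC3 hairpins parted in each. FTL read 11.23 and 11.28 with shHDAC3#1 but 12.23 and 12.31 with shHDAC3#2, and TIAM1 6.31 and 6.36, then 6.99 and 7.04, so both were above shLuc with shHDAC3#2. TDO2 read 5.38 and 5.62, then 4.84 and 5.14. LAMP3, a lysosomal membrane protein of maturing dendritic cells, rose by 0.91 ± 0.10 and stood 1.11 above HDAC3 knockdown, and SERINC5, which blocks retroviral infectivity, rose by 0.77 ± 0.12 and stood 0.88 above it. RNF149 and the growth factor receptor IGF1R rose by 0.76 ± 0.10 and 0.66 ± 0.10, with no called difference from HDAC3 knockdown. The 4 other probe sets of IGF1R changed by -0.05 to 0.33, that of TIAM1 by 0.10 and that of TDO2 by 0.03.

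Of the genes that fell with both hairpins, PKP2 came next after DNMT1. PKP2, the desmosomal protein plakophilin, read 8.70 and 8.65 in shLuc, 7.07 and 6.55 with shDNMT1#1, and 6.5 and 6.84 with shDNMT1#2. EVI2B, a membrane protein of blood cells, read 8.82 and 8.46, then 7.08 and 7.02, then 7.03 and 6.91 in the same order. Neither gene had a knockdown array near the control arrays. PKP2 fell by 1.94 ± 0.12 and EVI2B by 1.63 ± 0.10 (adjusted p = 7.5e-10 and 5.8e-10), and both were lower than in HDAC3 knockdown, by 0.96 and 0.98. Both remained called with the hairpin as a random block (adjusted p = 0.0041 and 0.012).

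UHRF1, the partner that guides DNMT1 to replicated DNA, read 8.74 and 8.51 in shLuc, 6.94 and 7.01 with shDNMT1#1, and 7.03 and 7.10 with shDNMT1#2. The 4 knockdown arrays lay within 0.2 units of each other and more than 1.4 below the controls. UHRF1 fell by 1.61 ± 0.10 (limma, adjusted p = 6.3e-10), to an average of 7.02 beside 6.94 in the HDAC3 arrays, and no difference between the knockdowns was called (0.07, adjusted p = 0.66). DKK1, a secreted inhibitor of WNT signalling linked to myeloma bone disease, read 6.16 and 6.02 in shLuc and 4.11 to 4.71 in the DNMT1 arrays. It fell by 1.57 ± 0.14, which was 1.06 lower than in the mean of the HDAC3 hairpins (adjusted p = 1.2e-06). Those hairpins parted, with 6.58 and 6.94 for shHDAC3#1 and 4.48 and 4.31 for shHDAC3#2. With the hairpin as a random block the adjusted p of DKK1 was 0.31.

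CCNA2, the cyclin of S phase and mitotic entry, read 8.37 and 8.13 in shLuc and 6.70 to 6.91 in the DNMT1 arrays, a fall of 1.47 ± 0.10. SKP2, which marks the inhibitor p27 for degradation, went from 8.51 and 8.40 to between 6.94 and 7.20, a fall of 1.36 ± 0.10. E2F8, a repressor of the E2F family, fell by 1.67 ± 0.11, from 6.53 and 6.48 to 5.31 and 5.07 with shDNMT1#1 and to 4.51 and 4.45 with shDNMT1#2. The groups did not overlap for any of the 3. PLEKHA3, a phosphoinositide-binding protein of the Golgi, fell by 1.83 ± 0.14, KIFAP3, a kinesin adaptor, by 1.51 ± 0.13, DPYSL2 by 1.43 ± 0.12 and the mitochondrial carrier SLC25A43, already dim in shLuc at a mean of 4.04, by 1.43 ± 0.14. Of these, UHRF1, DPYSL2 and SKP2 had no called difference from the mean of the HDAC3 hairpins. In each of them 1 HDAC3 hairpin lay above the DNMT1 arrays and the other below. SKP2 read 6.54 and 6.37 with shHDAC3#1 but 7.81 and 8.08 with shHDAC3#2.

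**Figure D3:**
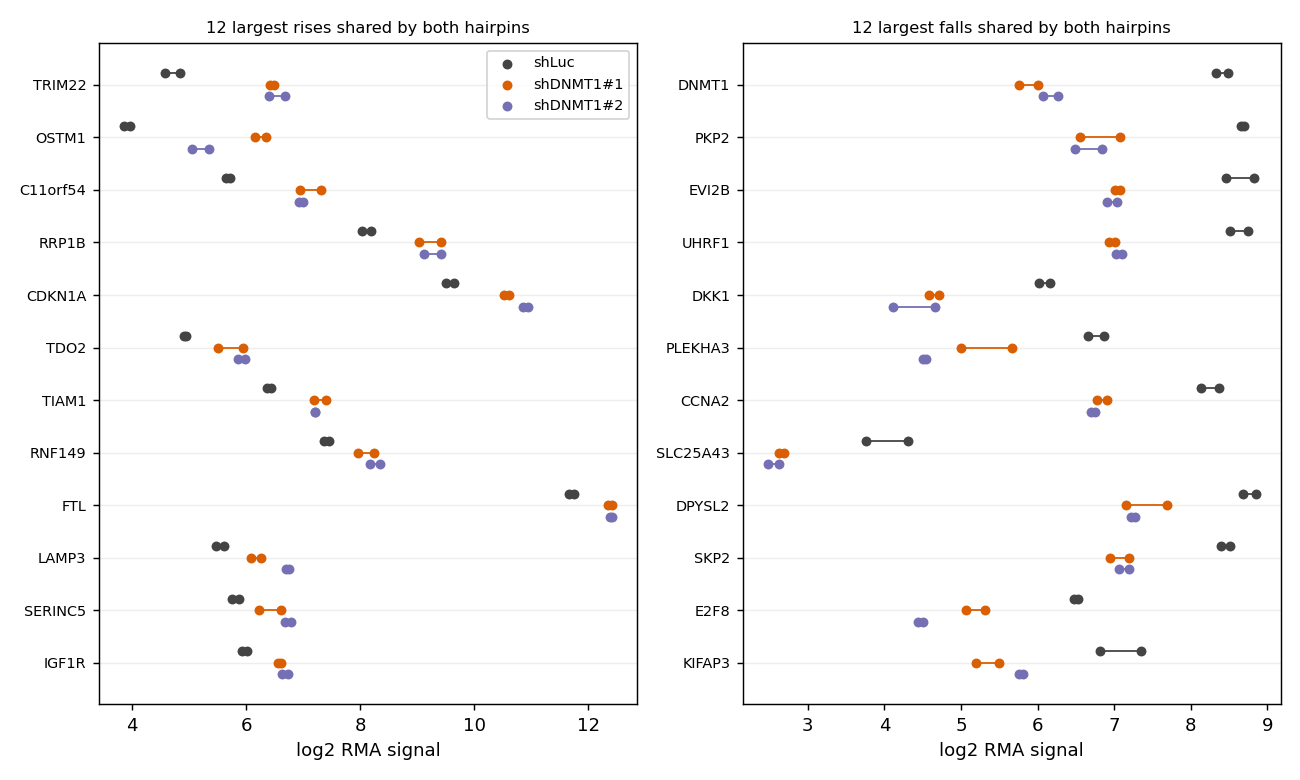
Points are the log2 RMA signal of each array for the 12 genes with the largest rises (left) and the 12 with the largest falls (right) shared by both DNMT1 hairpins, in grey for shLuc, orange for shDNMT1#1 and purple for shDNMT1#2, with a line between the 2 arrays of a group. For each of the 24 genes the 4 knockdown arrays lie on 1 side of both control arrays, which a ranking by the smaller hairpin change favours but does not require.

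Genes near the background of the array in the control were examined next, since transcripts held silent by methylation would appear there. A gene counted as near background when both shLuc arrays were under the 30th percentile of genes in that array, 5.22 and 5.27. Of 5693 such genes, 349 were called higher (6.13%) and 66 lower (1.16%), against 6.66% and 13.5% of all genes, so a rise was no more frequent among them than at large. The rule for a riser also asked that the gene moved alike with both hairpins and that all 4 DNMT1 arrays exceeded both shLuc arrays, and 172 genes met it (3.02%). Without the demand on all 4 arrays the number was 173, to be set against 3.9% of all genes that moved alike upward. The median change of the 172 risers was 0.39, 24 changed by 0.5 or more, and 3 by 1 or more. As a guide to the background itself, 26 genes of other tissues, such as olfactory receptors and lens crystallins, had a median shLuc signal of 4.93 and a median change of 0.16, and 3 of them were called higher.

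TRIM22 and OSTM1, described above, were the first of these risers. CXCL10, an interferon-induced chemokine that attracts T cells, read 5.20 and 5.03 in shLuc, 5.76 and 5.63 with shDNMT1#1, and 7.54 and 7.33 with shDNMT1#2. All knockdown arrays exceeded the controls, but the hairpins were far apart. CXCL10 rose by 1.45 ± 0.12 (limma, adjusted p = 3.2e-08), and shDNMT1#2 was 1.73 above shDNMT1#1 (adjusted p = 1.4e-08).

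BRWD3, a bromodomain protein, read 4.71 and 4.92 in shLuc and 5.28 to 5.70 in the DNMT1 arrays, a rise of 0.74 ± 0.11, and its other probe sets changed by 0.28 and 0.17. CLEC2B, a C-type lectin that engages a receptor of natural killer cells, rose by 0.68 ± 0.12, from 4.78 and 4.81 to between 5.22 and 5.74. TGFBR3, the TGF-beta co-receptor betaglycan, rose by 0.56 ± 0.12, from 4.27 and 4.53 to between 4.70 and 5.10. BRWD3 passed both ceilings in all 4 knockdown arrays and CLEC2B in 3 of them, whereas TGFBR3 stayed below. PRKCD, the delta isoform of protein kinase C, rose by 0.54 ± 0.12, and GEM, a small GTPase, by 0.51 ± 0.11, from 4.37 and 4.40 to between 4.87 and 4.97. CALCR, the calcitonin receptor, rose by 0.51 ± 0.12 and DRC2, a dynein regulator of motile cilia, by 0.51 ± 0.13. The others of the 15 were long noncoding or divergent transcripts, SLC16A12-AS1, IGFBP7-AS1, EOLA1-DT and LINC02492, with rises from 0.52 to 0.66.

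The set of risers depended on 1 control array and on the normalization. Of the 172, 14 also met the rule without shLuc replicate 1, 79 after a further quantile normalization and 55 after cyclic loess, a normalization chosen after the data were seen. Without shLuc replicate 1 the adjusted p was 0.13 for TGFBR3 and PRKCD, 0.20 for CALCR, 0.31 for EOLA1-DT and 0.55 for DRC2. The 12 that met the rule in all 4 settings were TRIM22, OSTM1, TDO2, BRWD3, SLC16A12-AS1, CXCL10, CLEC2B, IGFBP7-AS1, GEM, LINC02492, SEMA3D and AMN1. Probe sets that can cross-hybridize gave 39 of the risers. In the 58 risers with more than 1 probe set, 72 of 96 other probe sets changed by more than 0, with a median of 0.11.

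**Figure D4:**
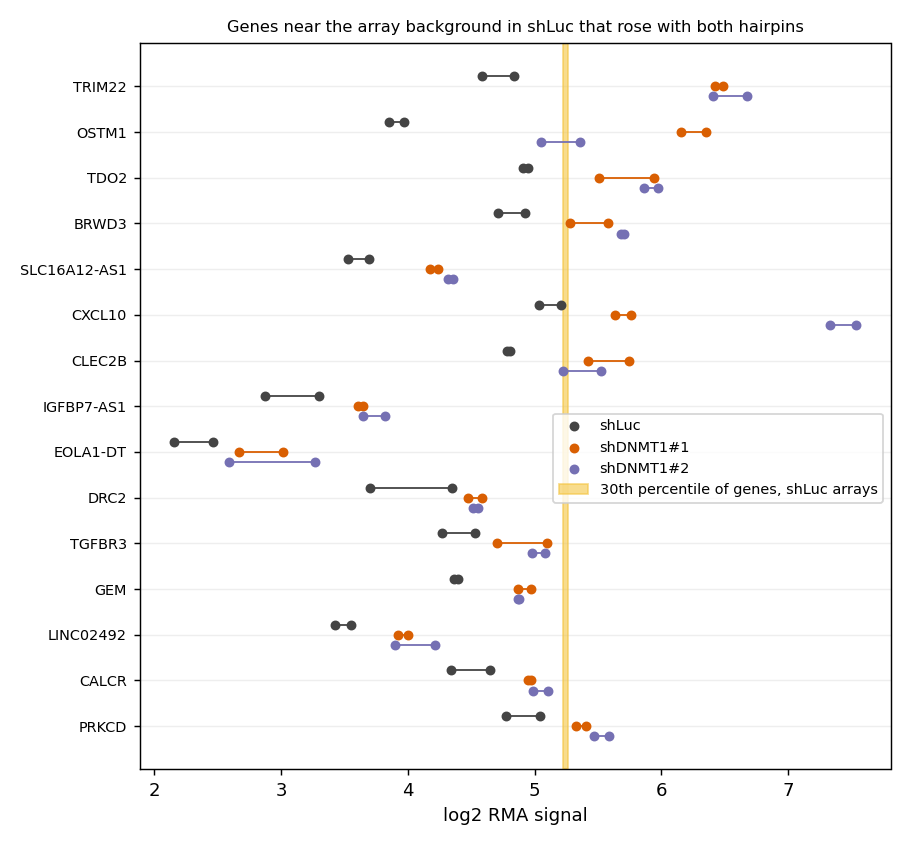
Points give the log2 RMA signal of each array for the 15 named genes that were near background in shLuc (grey) and rose with shDNMT1#1 (orange) and shDNMT1#2 (purple), and the yellow band spans the 30th percentiles of the 2 shLuc arrays, 5.22 and 5.27. TRIM22, TDO2, BRWD3, CXCL10 and PRKCD pass the band in every knockdown array, whereas SLC16A12-AS1, IGFBP7-AS1, EOLA1-DT and LINC02492 stay below it.

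Promoters of 2 of these risers are printed because they differ in the number of CG dinucleotides, the sites that DNMT1 methylates. They were chosen after their values were seen. RefSeq gives for GRCh38.p14 the 300 bases from 250 before to 50 after the start, and CG is in capitals. The TDO2 window (chr4:155903446-155903745, plus strand) holds 1 CG and that of TGFBR3 (chr1:91886102-91886401, minus strand) holds 34. A comparison of CG content over all risers is left out, since only 125 of the 172 (72.7%) had a window, and these 2 do not stand for the rest.
TDO2: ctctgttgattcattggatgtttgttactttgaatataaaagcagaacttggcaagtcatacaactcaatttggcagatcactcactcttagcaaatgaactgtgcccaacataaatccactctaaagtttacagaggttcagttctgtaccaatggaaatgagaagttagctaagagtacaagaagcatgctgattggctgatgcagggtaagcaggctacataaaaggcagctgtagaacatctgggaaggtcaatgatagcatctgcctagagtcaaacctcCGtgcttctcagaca
TGFBR3: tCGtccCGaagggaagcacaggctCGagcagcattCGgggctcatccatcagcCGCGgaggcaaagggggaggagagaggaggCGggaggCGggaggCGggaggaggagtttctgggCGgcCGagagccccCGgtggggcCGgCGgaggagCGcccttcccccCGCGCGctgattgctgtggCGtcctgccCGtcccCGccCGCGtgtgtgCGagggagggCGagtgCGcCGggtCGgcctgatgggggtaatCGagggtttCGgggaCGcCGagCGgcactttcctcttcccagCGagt

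The gene lists below are read against all genes, of which 6.66% were called higher and 13.5% lower, and against the level bin that holds the median level of a list, where this is bright. Of 23 genes of the DNA methylation machinery, 14 fell (60.9%) and none rose at the adjusted threshold in limma (1 at an unadjusted p under 0.05), and the median change was -0.38 against 0.07 for all genes. The median difference from HDAC3 knockdown was 0.05, with 4 genes higher and 4 lower. Among the 8 genes of maintenance, 7 fell: beside DNMT1 and UHRF1 these were its relative UHRF2 (-0.74 ± 0.12), CDCA7 (-0.88 ± 0.10) and HELLS (-0.54 ± 0.11), which together remodel chromatin for methylation, and the replication clamp PCNA (-0.57 ± 0.07) and USP7. LIG1, which seals the new strand, was not called (-0.00 ± 0.09). CDCA7 is read here by a probe set that can cross-hybridize. Its other probe set, dim at a mean signal of 4.65, gave 0.05. The de novo enzyme DNMT3B fell by 0.37 ± 0.11, whereas DNMT3A changed by 0.09 (adjusted p = 0.52). Of the demethylases, TET1 and TET2 fell by 0.38 and 0.44. Readers of methylated DNA that fell were MBD1, MBD2 (-0.70 ± 0.09), MBD4 (-0.69 ± 0.10) and ZBTB38 (-0.85 ± 0.08). Entering the hairpin as a random block left 3 of the 23 called lower (DNMT1, UHRF1 and CDCA7), without shLuc replicate 1 there were 9, and 6 when probe sets that can cross-hybridize were left out.

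Of 19 genes that silence repeats and heterochromatin, 11 fell (57.9%) and 1, EHMT2, rose, with a median of -0.32. The median difference from HDAC3 knockdown was -0.004, with 1 gene higher and 3 lower. None of the 19 was called with the hairpin as a random block in limma (adjusted p = 0.38 for EZH2, 0.15 for EED, 0.18 for SUV39H2 and 0.23 for PPHLN1). All 5 measured genes of PRC2, the complex that methylates histone H3 at silenced genes, fell: EZH2 by 0.67 ± 0.12, EED by 0.54 ± 0.09, SUZ12 by 0.32 ± 0.09, and RBBP4 and RBBP7 each by 0.42. The other probe set of EED, which cannot cross-hybridize, changed by 0.27 and was not called (limma, adjusted p = 0.081). Its mean signal was 2.65, so near background that it cannot test the fall. SUV39H2, a histone methyltransferase of heterochromatin, fell by 1.08 ± 0.12, and PPHLN1, a subunit of the HUSH silencing complex, by 0.64 ± 0.10. TRIM28 and SETDB1, which silence retroelements, changed by -0.19 and 0.16 and were not called.

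Mitosis had the lowest median of the lists. Of 40 genes of G2 and mitosis, 35 fell (87.5%) and none rose in limma (also none at an unadjusted p under 0.05). In 31 of the 40 all 4 knockdown arrays were below both controls, against 13.9% of all genes. The median change was -0.77, with -0.44 for shDNMT1#1 and -1.12 for shDNMT1#2. The median difference from HDAC3 knockdown was only -0.09, with 1 gene higher and 8 lower. In the HDAC3 arrays CDK1 and CCNB1 changed by -0.81 and -0.88 against shLuc. RACGAP1, which places the cleavage furrow, read 8.33 and 8.15 in shLuc, 7.45 and 7.25 with shDNMT1#1, and 5.82 and 5.94 with shDNMT1#2. CDK1, the kinase that drives mitosis, read 9.73 and 9.73, then 9.27 and 8.95, then 7.81 and 7.80. The order of the groups was the same in both genes, with shDNMT1#2 lowest and no overlap. RACGAP1 fell by 1.63 ± 0.09, CDK1 by 1.27 ± 0.09 and CCNB1, its cyclin, by 1.22 ± 0.10, and shDNMT1#2 was lower than shDNMT1#1 by 1.47, 1.30 and 1.11. Among spindle and kinetochore genes, 14 of 15 fell, with ASPM at -1.20 ± 0.12, KIF20A at -1.14 ± 0.12 and TPX2 at -1.03 ± 0.11. The kinases PLK1 and AURKB were not called (0.10 and -0.07). With shDNMT1#1 alone 25 genes were called lower, without shLuc replicate 1 28, and with the hairpin as a random block 0.

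Promoter motifs were read in the RefSeq windows of 34 of these 40 genes (85%). CCAAT, the box bound by NF-Y, was found on either strand in 26 (76.5%), against 39.7% of all 27305 genes with a window. TTTGAA, the core of the CHR element, was found in 24 (70.6%) against 18.2%, and both in 18 (52.9%) against 8.37%. A match is a description of the letters only. HMMR, a spindle protein that fell by 1.11 ± 0.10, shows both; it was chosen after its values were seen. It read 8.65 and 8.53 in shLuc and 7.21 to 7.91 in the DNMT1 arrays. In its window (chr5:163460382-163460681, plus strand) capitals mark CCAAT, or ATTGG where it lies on the opposite strand, and TTTGAA.
HMMR: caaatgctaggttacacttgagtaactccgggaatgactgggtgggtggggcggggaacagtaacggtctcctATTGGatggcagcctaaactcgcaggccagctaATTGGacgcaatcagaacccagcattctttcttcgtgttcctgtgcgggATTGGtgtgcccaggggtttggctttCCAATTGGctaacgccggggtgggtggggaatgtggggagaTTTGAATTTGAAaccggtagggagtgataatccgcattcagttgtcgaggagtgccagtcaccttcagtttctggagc

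Replication genes fell with them. Of 37, 27 fell (73%) and none rose in limma (none at an unadjusted p under 0.05), with a median of -0.57. The median difference from HDAC3 knockdown was 0.04, with 3 genes higher and 1 lower. In the HDAC3 arrays CDC7 and MCM6 changed by -1.32 and -0.89 against shLuc. Origin licensing was lower in 10 of 12 genes, among them MCM6 of the replicative helicase, which read 9.27 and 9.17 in shLuc, 8.49 and 8.34 with shDNMT1#1, and 8.04 and 8.0 with shDNMT1#2. It fell by 1.00 ± 0.09. CDC7, the kinase that fires origins, fell by 1.10 ± 0.12, and POLA1, the primase-bound polymerase, by 1.04 ± 0.10 with nearly equal changes for the hairpins (-1.01 and -1.06). RRM2, the small subunit of ribonucleotide reductase, was different: it read 10.47 and 10.51 in shLuc, 10.42 and 10.36 with shDNMT1#1, and 8.57 and 8.57 with shDNMT1#2. The change was -0.10 with shDNMT1#1 and -1.92 with shDNMT1#2, and the hairpins differed by 1.83. In windows of 33 S phase genes CCAAT occurred in 18 (54.5%) and TTTGAA in 3 (9.09%). With the hairpin as a random block only POLA1 was called.

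Of 30 genes of the E2F and RB network and the kinase inhibitors, 13 fell and 3 rose. Beside E2F8, E2F2 fell by 0.94 ± 0.09, RB1 by 0.86 ± 0.15 and FOXM1, the activator of mitotic genes, by 0.58 ± 0.10. The inhibitors parted: CDKN1A rose, while CDKN1B, which encodes p27, read 9.56 and 9.32 in shLuc and 8.09 to 9.01 in the DNMT1 arrays and fell by 0.99 ± 0.11. CDKN2A, often silenced by methylation, was already expressed in shLuc (8.56 and 8.48) and fell by 0.25 ± 0.08.

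The rise of CDKN1A was not shared by p53 targets in general. Of 29 measured genes, 3 rose and 6 fell, and the median was 0.04. PLK2, a stress-induced kinase, rose by 0.95 ± 0.14 and RRM2B, a subunit of ribonucleotide reductase, by 0.38 ± 0.12. The hairpin changes of RRM2B were 0.95 and -0.18. PLK2 read 6.23 and 5.97 in shLuc, 7.89 and 7.39 with shDNMT1#1, and 6.52 and 6.43 with shDNMT1#2, so that shDNMT1#1 was the higher. The death receptor FAS fell by 0.60 ± 0.10, PERP by 0.57 ± 0.09, and MDM2, which degrades p53, by 0.49 ± 0.08. Read by probe sets that cannot cross-hybridize, with mean signals of 4.59 and 6.54, FAS and PERP changed by 0.18 and 0.24. The remaining probe sets of FAS changed by -0.31, -0.57 and -0.53, and those of PERP by -0.81, 0.37 and 0.16. Set against HDAC3 knockdown, however, 12 of the 29 were higher and none lower (limma, 2 lower at an unadjusted p under 0.05), against 6% higher and 3.59% lower over all genes. CDKN1A (0.86), TP53INP1 (0.73), SESN1 (0.65), PLK2 (0.62) and ZMAT3 (0.60) had the largest differences. TP53INP1 itself fell against shLuc (-0.42), and SESN1 and ZMAT3 were not called against it.

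DNA repair genes fell in 14 of 28 cases, with 2 higher (TP53BP1 and FANCB) and a median of -0.29. The median difference from HDAC3 knockdown was 0.03, with 1 gene higher and 3 lower. RNF168, which ubiquitylates chromatin at breaks, read 7.87 and 7.63 in shLuc, 6.88 and 6.67 with shDNMT1#1, and 5.18 and 5.25 with shDNMT1#2, and fell by 1.75 ± 0.12. MSH6 of mismatch repair fell by 1.41 ± 0.10, BRIP1, a helicase of the Fanconi pathway, by 1.26 ± 0.14, and BARD1, the partner of BRCA1, by 0.97 ± 0.10. RNF168, MSH6 and BARD1 fell more with shDNMT1#2.

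Interferon-stimulated genes came next. Of 47, 9 rose (19.1%) and 4 fell (8.51%), 22 rose at an unadjusted p under 0.05, and 24 had all 4 DNMT1 arrays above both controls, against 20.2% of all genes. The median was 0.20. Of the 47, 16 were near background in shLuc, where genes on the whole shifted by 0.08 to 0.10. After TRIM22 and CXCL10, IFITM1, a membrane protein that blocks viral entry, was the third: it read 5.27 and 5.38 in shLuc, 5.90 and 5.80 with shDNMT1#1, and 5.91 and 5.93 with shDNMT1#2. The groups were separate and the hairpins close to each other. IFITM1 rose by 0.56 ± 0.11 and stood 0.99 above HDAC3 knockdown, where it changed by -0.44 against shLuc. RSAD2 rose by 0.46 ± 0.12, ISG15, the ubiquitin-like modifier, by 0.32 ± 0.09, and OASL, OAS3, IFIT2 and PARP9 by 0.28 to 0.30. Those that fell were SAMD9 (-0.75 ± 0.13), EIF2AK2 (-0.66 ± 0.10), the kinase that stops translation on double-stranded RNA, EPSTI1 (-0.41) and UBE2L6 (-0.34). The other probe set of SAMD9, with a mean signal of 6.08, changed by -3e-04. The number that rose was 3 without shLuc replicate 1, 11 after a further quantile normalization, 7 after cyclic loess and 1, TRIM22, with the hairpin as a random block.

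Against HDAC3 knockdown 14 of the 47 were higher and none lower (limma, 24 and 2 at an unadjusted p under 0.05), against 6% and 3.59% of all genes. TRIM22 and IFITM1 were the members called with the hairpin as a random block. ISG20, IRF9 and CCL5 had differences of 1.21, 0.70 and 0.59, but their changes against shLuc, 0.25, 0.30 and 0.18, were not called. The interferon regulators IRF1, IRF7 and IRF9 were not called against shLuc, nor were IFNB1 (-0.11) and IFNL1 (0.24). Among 23 genes of nucleic acid sensing and interferon signalling, 6 fell (26.1%) and none rose in limma (3 at an unadjusted p under 0.05). None was called with the hairpin as a random block in limma (adjusted p = 0.30 for IFIH1, 0.42 for TBK1, 0.19 for SAMHD1 and 0.41 for IFNAR1). IFIH1, a sensor of double-stranded RNA, fell by 0.54 ± 0.10, its downstream kinase TBK1 by 0.52 ± 0.12, SAMHD1 by 0.45 ± 0.08 and the receptor chain IFNAR1 by 0.40 ± 0.11. IFIH1 and TBK1 moved chiefly with shDNMT1#2 (-0.84 and -0.90, against -0.24 and -0.14).

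Windows of CXCL10 (chr4:76023448-76023747, minus strand) and IFITM1 (chr11:313790-314089, plus strand) are shown because both hold the letters of the interferon-stimulated response element, GAAA followed after any 2 bases by GAAA, searched on both strands. Capitals mark it. It was found in 1195 of all 27305 genes with a window (4.38%). The CXCL10 match starts 221 bases before the start of transcription and the IFITM1 matches 40 and 6 bases before it. A share over the list is left out, since only 37 of the 47 genes (78.7%) had a window.
CXCL10: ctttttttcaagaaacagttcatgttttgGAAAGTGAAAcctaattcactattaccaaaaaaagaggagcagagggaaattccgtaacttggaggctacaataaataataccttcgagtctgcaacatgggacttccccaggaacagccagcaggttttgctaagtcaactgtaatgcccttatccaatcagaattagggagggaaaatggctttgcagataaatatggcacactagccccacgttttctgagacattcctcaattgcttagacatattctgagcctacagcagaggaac
IFITM1: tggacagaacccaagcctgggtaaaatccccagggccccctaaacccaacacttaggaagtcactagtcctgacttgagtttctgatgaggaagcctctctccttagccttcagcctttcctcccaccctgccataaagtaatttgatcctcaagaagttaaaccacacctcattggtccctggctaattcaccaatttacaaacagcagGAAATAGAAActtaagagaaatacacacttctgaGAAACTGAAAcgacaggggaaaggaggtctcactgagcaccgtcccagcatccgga

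Antigen presentation genes were read by class, and no test compared the classes. Of 12 class II genes, which plasma cells keep low, 5 rose and 2 of those moved alike with both hairpins, 7 were not called, none fell in limma (1 at an unadjusted p under 0.05), and the median was 0.18, beside 0.16 for the background genes of other tissues. HLA-DMA, which loads peptide on class II, read 5.87 and 5.51 in shLuc, 5.74 and 5.85 with shDNMT1#1, and 6.39 and 6.33 with shDNMT1#2, so that only shDNMT1#2 was above the controls. It rose by 0.39 ± 0.11 in the mean of the hairpins. HLA-DRB1 rose by 0.40 ± 0.09, HLA-DQB1 by 0.33 ± 0.09 and HLA-DPB1 by 0.33 ± 0.10. Those probe sets can cross-hybridize between related genes, and without such probe sets 1 class II gene was called higher and HLA-DPB1 changed by -0.06. The probe set behind that value of HLA-DPB1 was dim, with a mean signal of 3.89. Under cyclic loess 2 class II genes were higher and 1 lower. The class II activator CIITA was not called (0.16). Of 18 class I genes, 4 fell (22.2%) and 1 rose, with a median of -0.15; their median level lies in the brightest bin, where 39.2% of genes were called lower. ERAP1, a trimmer of peptides, fell by 0.86 ± 0.11 (-0.07 when read without probe sets that can cross-hybridize) and HLA-B by 0.30 ± 0.08, and NLRC5, the activator of class I genes, rose by 0.31 ± 0.10. Against HDAC3 knockdown, 7 class II genes and 11 class I genes were higher and none lower (limma, 1 lower in each class at an unadjusted p under 0.05). HLA-DMA stood 1.13 above it. In the HDAC3 arrays HLA-DMA and HLA-B changed by -0.74 and -0.61 against shLuc. HLA-B is thus among the higher genes although it fell in DNMT1 knockdown, and such a difference need not be a rise.

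Of 46 cancer-testis and germline genes, 31 were near background in shLuc, 2 rose and 2 fell (4.35% each), and the median was 0.10 against 0.07 for all genes. MAGEB1 read 4.04 and 4.23 in shLuc, 4.33 and 4.39 with shDNMT1#1, and 4.64 and 4.72 with shDNMT1#2. MAGEA4 read 5.14 and 5.13, then 5.30 and 5.27, then 5.58 and 5.59. Both sets of values were ordered alike, with small steps near the background. MAGEB1 rose by 0.39 ± 0.11 and MAGEA4 by 0.30 ± 0.10. DAZL, MAEL and DDX4, germline genes controlled by promoter methylation, changed by -0.08, 0.21 and 0.20 and were not called. SYCP3, of the meiotic chromosome axis, and MAGEA1 were well above background in shLuc, at 9.80 and 8.95 on average, and fell by 0.66 ± 0.09 and 0.25 ± 0.08. SYCP3 changed by -0.03 by a probe set that cannot cross-hybridize, but the mean signal of that probe set was only 2.25.

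Imprinted genes gave 1 rise (4.35%) and 4 falls (17.4%) among 23, with a median of 0.01. PEG10 fell by 1.05 ± 0.11, from 8.63 and 8.30 to between 7.12 and 7.57, and its neighbour SGCE by 0.74 ± 0.11, mostly with shDNMT1#2. CDKN1C rose by 0.29 ± 0.10, but its value was -0.01 without probe sets that can cross-hybridize. Of 44 genes often silenced by promoter methylation in tumours, 6 rose (13.6%) and 7 fell (15.9%), and the median was 0.10. DUSP4, an inhibitor of MAP kinases, rose by 0.41 ± 0.09, MGMT, which repairs alkylated guanine, by 0.34 ± 0.11, and the WNT inhibitor SFRP5 by 0.32 ± 0.08. DKK1 had the largest change of the list and fell, and TGFBR2 fell by 0.78 ± 0.12. The other probe set of TGFBR2, as bright (mean signal 6.81 beside 6.82), changed by 0.06. TIMP2 fell by 0.67 ± 0.09, with hairpin changes of 0.13 for shDNMT1#1 and -1.47 for shDNMT1#2. The 7 genes of this list near background gave no rise at the adjusted threshold.

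Of 28 plasma cell genes, 14 fell (50%) and 4 rose (14.3%), and the median was -0.28. Their median level lies in the brightest bin, where 39.2% of genes were called lower and 4.95% higher, and with the hairpin as a random block none was called in limma. In these bulk samples fewer cells of a type and less RNA per cell cannot be told apart. TNFRSF17, the receptor BCMA, read 10.66 and 10.62 in shLuc, 9.74 and 9.62 with shDNMT1#1, and 9.54 and 9.44 with shDNMT1#2. IRF4, on which myeloma cells depend, read 9.44 and 9.5, then 8.81 and 8.71, then 9.09 and 8.99. PRDM1, the plasma cell repressor BLIMP1, read 9.46 and 9.19, then 8.86 and 8.59, then 8.37 and 8.57. No knockdown array reached a control array in any of the 3. TNFRSF17 fell by 1.06 ± 0.08, PRDM1 by 0.73 ± 0.10, IRF4 by 0.57 ± 0.08 and XBP1, the factor of the secretory program, by 0.54 ± 0.08. Each was lower than in the mean of the HDAC3 hairpins, by 0.84, 0.75, 0.48 and 0.67 in that order. Of all 28 genes, however, 5 were lower than in HDAC3 knockdown and 8 higher, with a median difference of 0.07. The HDAC3 hairpins parted in TNFRSF17, with 10.79 and 10.87 for shHDAC3#1 but 9.92 and 10.12 for shHDAC3#2. PRDM1 read 9.51 and 9.80, then 9.04 and 9.01. The mean of the 3 probe sets of IRF4 changed by -0.13 (adjusted p = 0.24).

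SLAMF7 and GPRC5D, surface proteins used as myeloma drug targets, fell by 0.77 ± 0.09 and 0.76 ± 0.10, and the integrin ITGA4 by 0.78 ± 0.10. GPRC5D was higher than in HDAC3 knockdown (0.28), and SLAMF7 and ITGA4 had no called difference from it. CD38 rose by 0.45 ± 0.11, from 5.92 and 5.89, with 1 shDNMT1#1 array at 5.89 and the shDNMT1#2 arrays at 6.80 and 6.53. ITGB7 and POU2AF1 rose by 0.25 and 0.26. The summed linear signal of the 8 plasma cell markers was 7280 to 7300 in shLuc and 4330 to 5710 in the DNMT1 arrays, whereas that of MAF, CCND2 and ITGB7 was 8410 to 8690 and 8680 to 11800. Of 26 B cell genes, 2 fell and none rose in limma (4 at an unadjusted p under 0.05), and PAX5 and BCL6, factors of earlier B cell stages, were not called (0.21 and 0.15). Markers of T cells were at a sum of 332 to 367 in shLuc and 266 to 368 in the knockdown, and CD3E, CD3G and CD2 were near background. The part of cell composition in these falls was not tested.

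MYC, a driver of myeloma growth, read 11.14 and 11.00 in shLuc, 11.01 and 10.87 with shDNMT1#1, and 11.48 and 11.34 with shDNMT1#2. Both shDNMT1#2 arrays lay above the controls, whereas 1 shDNMT1#1 array lay between the controls and the other below them. The change of MYC, 0.10 ± 0.08, was not called (adjusted p = 0.34), although it was called after quantile normalization (0.21) and after cyclic loess (0.28). Of 27 genes of the MYC network and ribosome biogenesis 6 fell (22.2%, in the brightest bin with its 39.2%) and none rose in limma (2 at an unadjusted p under 0.05), with TFRC, the transferrin receptor, at -0.95 ± 0.08.

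In the endoplasmic reticulum list, 12 of 30 genes fell (40%) and 2 rose, with a median of -0.16. This share is near the 39.2% called lower in the brightest bin, where the median level of the list lies. DNAJC10, a chaperone reductase, fell by 0.87 ± 0.11, the oxidase ERO1A by 0.81 ± 0.10, the stress sensor EIF2AK3 by 0.76 ± 0.10 and ERP44 by 0.70 ± 0.10 (-0.04 without probe sets that can cross-hybridize). P4HB, the protein disulfide isomerase, rose by 0.40 ± 0.08 and HERPUD1 by 0.28 ± 0.09. This balance depended on scaling: a further quantile normalization gave 7 lower and 7 higher. Relative to HDAC3 knockdown 14 were higher and 1, XBP1, lower, with PDIA4 at 1.30, P4HB at 0.95 and HYOU1 at 0.77 above it. LMAN1, a cargo receptor between endoplasmic reticulum and Golgi, rose by 0.39 ± 0.08 and stood 1.15 above the mean of the HDAC3 hairpins. It read 9.99 and 10.00 in shLuc, 8.29 and 8.22 with shHDAC3#1, but 10.15 and 10.29 with shHDAC3#2. ATF4 targets fell in 10 of 29 cases (34.5%, in a level bin with 24.3% lower), with SLC1A4 at -0.80 ± 0.09 (-0.02 by its probe set that cannot cross-hybridize) and SLC7A5, an amino acid transporter, at -0.51 ± 0.08. That probe set of SLC1A4 had a mean signal of 4.98, and the remaining ones changed by -0.98, -0.93 and -0.38.

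Of 25 genes of cholesterol and fatty acid synthesis, 11 fell (44%) and 2 rose, in a level bin with 24.3% lower. HSD17B12, of fatty acid elongation, fell by 1.68 ± 0.10, with hairpin changes of -0.36 for shDNMT1#1 and -3.00 for shDNMT1#2, HMGCS1 by 1.12 ± 0.10 and MSMO1 by 1.02 ± 0.09. Among 29 genes of glycolysis and hypoxia, 13 fell (44.8%) and none rose in limma (1 at an unadjusted p under 0.05), and EGLN1, P4HA1 and HIF1A fell by 0.98 ± 0.10, 0.87 ± 0.10 and 0.76 ± 0.11. Of 29 lysosome and autophagy genes 6 rose (20.7%) and 5 fell (17.2%); beside OSTM1 and LAMP3 these included the cathepsins CTSH and CTSD at 0.34 and 0.32, and LAMP2 at -0.66 ± 0.11. Of 29 death regulators 7 fell (24.1%) and 1 rose, with MCL1 at -0.43 ± 0.08 and BCL2L2 at 0.46 ± 0.10. Of 28 genes of NF-kB and inflammation 3 fell and 3 rose (10.7% each), with the inhibitor TNFAIP3 at -1.04 ± 0.09. Of 17 histone genes 6 fell (35.3%) and none rose in limma (none at an unadjusted p under 0.05).

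Several list counts rested on shLuc replicate 1. Without that array, 12 plasma cell genes fell and none rose, 8 endoplasmic reticulum genes fell and none rose, 2 class II genes rose, 7 genes each of cholesterol and fatty acid synthesis and of glycolysis and hypoxia fell, and no cancer-testis gene rose, all in limma. With the hairpin as a random block, MSMO1 was called lower, and no gene of the class II, p53, repair, endoplasmic reticulum, cancer-testis or glycolysis lists was called in either direction. When probe sets were averaged by gene, calls were lost by IRF4 as given above and by CALCR (0.25), PPHLN1 (-0.09), EED (-0.14), PERP (-0.12), IFIH1 (-0.22), IFNAR1 (-0.23), ERAP1 (-0.23), HLA-B (-0.16), HLA-DQB1 (0.18), HLA-DPB1 (0.14), CDKN1C (0.19), EIF2AK3 (-0.15) and BCL2L2 (0.27), and HSD17B12 and TFRC kept theirs at -0.36 and -0.34.

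**Figure D5:**
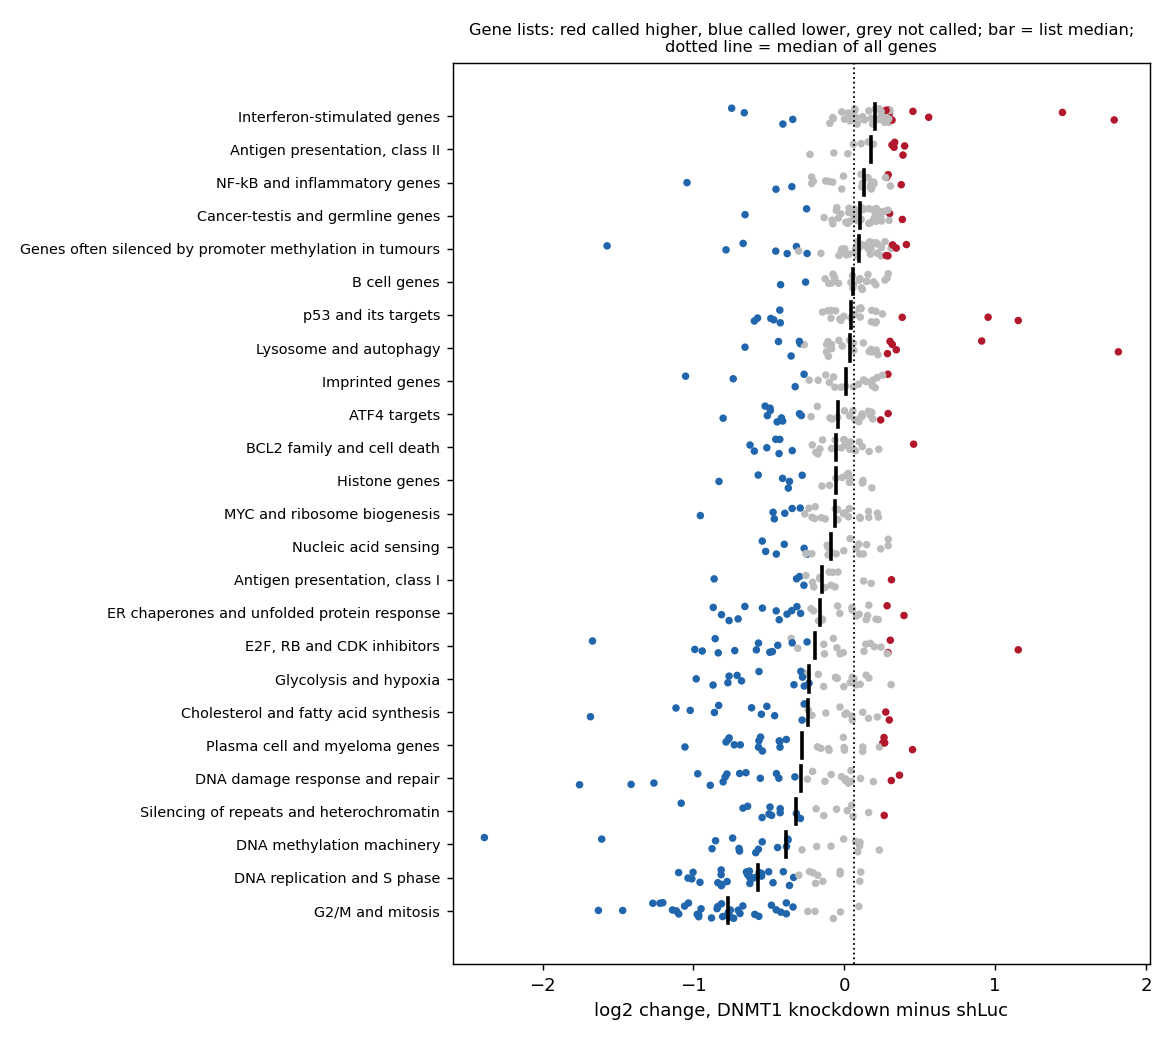
Each point is a gene of a list at its log2 change in DNMT1 knockdown against shLuc, red where called higher, blue where called lower and grey where not called; bars are list medians and the dotted line is the median of all genes, 0.07. Lists of mitosis (-0.77), replication (-0.57) and DNA methylation machinery (-0.38) have the lowest medians, and interferon-stimulated (0.20) and class II genes (0.18) the highest.

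The DNMT1 arrays were also compared directly with the HDAC3 arrays. This contrast sets the mean of the DNMT1 hairpins against the mean of the HDAC3 hairpins, and shLuc cancels in it. It called 1897 genes (9.59%), 1187 higher (6%) and 710 lower (3.59%). Of the genes called against shLuc, 141 that rose were also higher than in HDAC3 knockdown and 513 that fell were also lower. The 6 highest of these were TRIM22, LMAN1, HLA-DMA, LAMP3, CXCL10 and IFITM1. Part of the difference came from falls in HDAC3 knockdown in TRIM22, LMAN1, HLA-DMA and IFITM1. Their changes there against shLuc were -0.61, -0.76, -0.74 and -0.44. The 6 lowest were LAPTM4A, DNMT1, BOLA3, QSER1, DENND6A and DKK1. The HDAC3 hairpins parted in some of them. DKK1 read 6.58 and 6.94 with shHDAC3#1 but 4.48 and 4.31 with shHDAC3#2, within the range of the DNMT1 arrays. CXCL10 read 4.92 and 4.70, then 6.01 and 6.41, and LMAN1 8.29 and 8.22, then 10.15 and 10.29, so shHDAC3#2 overlapped or passed shDNMT1#1. In LAPTM4A the HDAC3 arrays overlapped shDNMT1#1. In the others no HDAC3 array overlapped the DNMT1 arrays. BOLA3, needed for iron-sulfur proteins of mitochondria, read 9.66 and 9.74 in shLuc, 8.80 and 8.56 with shDNMT1#1, and 7.51 and 7.53 with shDNMT1#2, and averaged 9.52 in the HDAC3 arrays. QSER1, which protects DNA methylation valleys from de novo methylation, read 7.61 and 7.33 in shLuc and 5.48 to 6.26 in the DNMT1 arrays, and averaged 7.07 in the HDAC3 arrays. The HDAC3 means lay above every DNMT1 array in both genes. BOLA3 fell by 1.60 ± 0.09 and QSER1 by 1.51 ± 0.12, and their differences between the knockdowns were -1.43 and -1.11. The mean of the 4 probe sets of QSER1 changed by -0.49.

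With the hairpin as a random block 6 genes were called between the knockdowns: DNMT1 lower, and TRIM22, IFITM1, MPDU1, CDC23 and NUCB2 higher. The last 3 were not called against shLuc in DNMT1 knockdown, with changes of -0.02, -0.16 and 0.17. DNMT1, TRIM22 and IFITM1 were thus called in this contrast with the block and against shLuc without it, and DNMT1 and TRIM22 against shLuc with it too.

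The 2 DNMT1 hairpins also differed from each other, at 2365 genes (12%), 706 higher and 1659 lower with shDNMT1#2. CSTB, a cathepsin inhibitor, read 12.07 and 12.10 in shLuc, 12.34 and 12.38 with shDNMT1#1, and 9.16 and 9.09 with shDNMT1#2. AIDA read 9.11 and 9.09, then 8.95 and 8.55, then 5.76 and 5.92. LPXN, a focal adhesion protein, read 9.58 and 9.47, then 9.92 and 9.92, then 7.12 and 7.06. In these 3 genes shDNMT1#2 alone left the range of the controls by more than 2 units, although the mean of the hairpins was called lower. The other probe set of CSTB changed by -0.36, that of AIDA by -1.70 and that of LPXN by 0.22. In the other direction, MZB1, a chaperone of immunoglobulin assembly, read 10.22 and 10.36 in shLuc, 8.71 and 8.56 with shDNMT1#1, and 10.99 and 10.68 with shDNMT1#2. RND3, a small GTPase, read 7.71 and 7.45, then 7.41 and 7.09, then 9.05 and 8.79. Their hairpin differences were 2.20 and 1.67. The hairpin sequences were not used here. Of the 2615 genes that moved alike, 1973 had no called difference between hairpins, 750 higher and 1223 lower than shLuc.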

How the data were processed

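Expression was measured on an Affymetrix array in 10 samples of MM.1S cells, and the 6 arrays of shLuc, shDNMT1#1 and shDNMT1#2 are described here. The authors deposited log2 values for 54675 probe sets. The submitters' processing notes name RMA; its version, and whether 1 run held all arrays, are not stated in the sources used here. The scale was read from the values. RMA signals near background change little with RNA amount, which understates changes of dim genes, and the number of arrays limits the precision.

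Through the platform annotation 41091 probe sets had 1 symbol, 1801 several and 11783 none; 41037 of the first matched RefSeq (GRCh38.p14) by gene ID. Each of 19775 genes was read by 1 single-symbol probe set, that of highest mean across the 10 arrays, and no dim gene was removed. One limma 3.58.1 model in R 4.3.3 (lmFit, eBayes with trend) held all 5 groups, with 5 residual degrees of freedom, two-sided tests and Benjamini-Hochberg adjustment. A check of the model on simulated data drew independent noise for each array, so it cannot speak to variation between hairpins or batches. Named genes were DNMT1, the 12 largest rises and 12 largest falls by the smaller hairpin change, 15 risers near background, up to 4 called members of each list, the 6 highest and 6 lowest against HDAC3 knockdown, the 3 highest and 3 lowest between hairpins, and a few regulators. Genes added outside this rule are list members or were chosen after their values were seen. Members, lists and rules were chosen with earlier results of these data known. List entries without a measured gene were not analysed here. Promoters came from a RefSeq table of 27305 genes, any window of a gene counting. Figures were drawn with matplotlib 3.10.9 in Python 3.11.15.

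Alternatives were a filter on dim genes, the mean of probe sets, omission of those that can cross-hybridize (by name suffix), quantile normalization, median centring, cyclic loess (added after the data were seen), eBayes without trend, array weights, only the arrays compared, each hairpin alone, the hairpin as a random block, the replicate number as a block, other background ceilings, and leaving out each array. Replicate numbers did not pair the arrays.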

Additional observations from a re-analysis of the deposited data

Results flagged for a closer look

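Of 136 named genes, 62 differed between the DNMT1 hairpins by limma's test of shDNMT1#2 minus shDNMT1#1 over all 19775 genes, of which 12% were called. Named genes were mostly picked for large called changes, and some for the hairpin difference itself, so the 2 shares cannot be compared. In 43 the second hairpin gave the larger fall or the smaller rise, and in 19 the reverse. Values are that difference on the log2 scale. No cause of these differences was tested.

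Signs were opposite for the hairpins in 8 genes: LAPTM4A (-2.75), MZB1 (2.20), RND3 (1.67), CSTB (-3.23), LPXN (-2.83), MYC (0.47), TIMP2 (-1.60) and CR2 (1.27). CSTB, LPXN, LAPTM4A and TIMP2 were below shLuc with shDNMT1#2, and MZB1, CR2, RND3 and MYC with shDNMT1#1.

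Cell cycle genes in this group were CDKN1A (0.33), E2F8 (-0.72), RACGAP1 (-1.47), CDK1 (-1.30), CCNB1 (-1.11), CDC7 (-0.89), RRM2 (-1.83), MCM6 (-0.39), CDKN1B (-0.67), E2F2 (-0.86) and PLK2 (-1.17). Those of DNA repair, chromatin and meiosis were QSER1 (0.52), SUV39H2 (1.02), EZH2 (-0.73), PPHLN1 (-0.46), RNF168 (-1.56), MSH6 (-1.43), BARD1 (-0.84), SYCP3 (-0.79), H2BC12 (0.68) and H2AZ1 (-0.81). Among immune and death genes they were LAMP3 (0.55), CXCL10 (1.73), HLA-DMA (0.56), FAS (0.57), IFIH1 (-0.60), TBK1 (-0.75), ERAP1 (-1.01), HLA-DRB1 (0.39), HLA-DPB1 (0.55), TGFBR2 (-0.46), CASP8 (-0.64), SLAMF7 (-0.50), CASP1 (-0.56), BIRC2 (-0.53) and TNFAIP3 (-0.49).

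The others were OSTM1 (-1.05), PLEKHA3 (-0.81), BOLA3 (-1.16), DENND6A (-1.05), AIDA (-2.91), SGCE (-1.0), EIF2AK3 (0.70), SLC1A4 (-0.47), TFRC (-1.26), MAX (0.40), NOLC1 (0.37), ODC1 (0.57), HSD17B12 (-2.64), HMGCS1 (-0.74), MSMO1 (-0.36), ELOVL6 (-0.87), EGLN1 (-0.82) and ANKRD37 (0.52). HSD17B12 and AIDA had changes of -0.36 and -0.35 with shDNMT1#1 against -3.00 and -3.26 with shDNMT1#2.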

How the results depend on the processing

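The number of genes called, 3992, was 1611 with shDNMT1#1 alone, 31 with the hairpin as a random block (1 higher, 30 lower) and 1365 to 4875 when an array was left out, lowest without shLuc replicate 1. The number moving alike, 2615, was 917 to 3278 without an array, lowest without shLuc replicate 1 and 1685 without shDNMT1#1 replicate 2. The 172 risers near background were 22 after the filter on dim genes, 79 after quantile normalization, 101 under a 20th percentile ceiling, 55 after cyclic loess and 22 to 315 without an array (22 without shLuc replicate 1, 315 without shLuc replicate 2). The 1897 genes called against HDAC3 knockdown were 6 with the random block and 1422 to 2341 without an array. The 2365 called between hairpins were 1417 to 2253 without an array, 1417 without shDNMT1#2 replicate 2. DNMT1 fell by 2.31 to 2.46 without an array and was called wherever its probe set was kept; that probe set can cross-hybridize and is its only one. With the replicate number as a block 3574 genes were called (1041 higher, 2533 lower); correlations of same-numbered deviations among the compared groups were 0.27, -0.07 and 0.01, so the arrays share only a number.

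The split of calls moved with scaling: 1317 higher and 2675 lower became 1968 and 2295 after quantile normalization and 93 and 1272 without shLuc replicate 1. Signs turned without probe sets that can cross-hybridize in LPXN (0.22), CDCA7 (0.049), EED (0.27), FAS (0.18), PERP (0.24), HLA-DPB1 (-0.059), CDKN1C (-0.014), CASP8 (0.19), CR2 (0.38), TCF3 (0.13), MAX (0.058) and P4HA1 (0.015). They turned after quantile normalization in TCF3 (0.009), with shDNMT1#1 alone in LAPTM4A (0.34), RND3 (-0.33), CSTB (0.28), LPXN (0.40) and TIMP2 (0.13), and with shDNMT1#2 alone in MZB1 (0.55) and CR2 (0.21). Some probe sets read in place of those that can cross-hybridize were dim, with mean signals of 2.65 for EED, 2.74 for CR2, 2.48 for P4HA1 and 3.89 for HLA-DPB1. The cause of the turned signs was not tested. The random block kept 15 of 151 gene results on their side of the threshold, and 136 were no longer called.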

Other observations

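Summed linear signals of markers of other cell types were 562 to 589 in shLuc and 577 to 671 in the DNMT1 arrays for B cells, 104 to 114 and 111 to 127 for natural killer cells, 172 to 185 and 188 to 201 for monocytes and macrophages, 493 to 514 and 529 to 595 for endothelium, 515 to 569 and 536 to 602 for fibroblasts, and 150 to 153 and 143 to 197 for epithelium. None of these markers was called in limma. Erythroid markers summed to 397 to 444 and 326 to 357, and HBB, a globin, fell by 0.64. TRAT1, a T cell marker, fell by 0.46.

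Genes that fell with both hairpins under the strictest error, with the hairpin as a random block, also included some outside the lists. DSG2, a desmosomal cadherin, read 7.80 and 7.47 in shLuc, 5.97 and 5.56 with shDNMT1#1, and 6.43 and 6.54 with shDNMT1#2, and fell by 1.51 ± 0.12. PTPN11, the phosphatase SHP2, read 8.54 and 8.30, then 7.13 and 6.81, then 7.36 and 7.24, and fell by 1.29 ± 0.10. STAP1, an adaptor of B cell receptor signalling, fell by 1.31 ± 0.10. With PKP2, DSG2 makes 2 desmosomal genes among these 30; both were picked after their values were seen.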
